A study of Homo sapiens and Mus musculus with 4 samples.

Results

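IVA12, a mouse hybridoma of the B lineage, was compared with 3 lines of the T lineage to describe which genes it expressed above, or below, every one of them. Genes were sought whose IVA12 value was higher than the highest, or lower than the lowest, of the 3 T lines. Of 15488 protein-coding genes that carry the same symbol in human and mouse, 2905 were above all 3 T lines and 3139 were below all 3. At a limit of 2-fold, 755 genes were above and 701 below, which together made 1456 genes or 9.40% of those compared. These 1456 genes are called the members above and below. Of the 15488 genes, 9444 lay between the T lines or were tied with one of them. Among these 9444, 1366 were listed at 0 in all 4 libraries.

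Bulk messenger RNA of 4 established cell lines was sequenced, with 1 library per line, as a baseline for single-cell methods. Jurkat derives from a human T-cell leukaemia and is given by the study as CD4+ T cells. TALL104 derives from a human leukaemia of CD8+ T cells and was the only one of the 4 whose medium held interleukin-2. EL4 derives from a mouse T-cell lymphoma and is given as CD4+ T cells. IVA12 was the only B-lineage line, so whatever is particular to this hybridoma cannot be told apart from what B-lineage cells share. No line was treated, and each came from the ATCC collection and was kept in its own medium (RPMI for Jurkat and EL4, DMEM for IVA12, IMDM for TALL104). IVA12 and EL4 are mouse lines, whereas Jurkat and TALL104 are human, so EL4 was the only T line of the same species, and species and lineage cannot be told apart in the other comparisons. Without a second library of any line, no difference has a replicate check and no test was made.

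B lymphocytes recognise antigen through a surface immunoglobulin that signals through the CD79A and CD79B chains. When a B cell matures into an antibody-secreting plasma cell, the factors IRF4, PRDM1 and XBP1 shut down much of the B-cell programme and expand the endoplasmic reticulum (ER), where antibody is folded and assembled. A hybridoma is made by fusing an antibody-producing B cell with a myeloma cell, so that it secretes antibody and divides without limit. T lymphocytes recognise antigen through a T-cell receptor, which signals through the CD3 chains and the kinases LCK and ZAP70.

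Values are transcripts per 1000000 (TPM), that is, the FPKM (fragments corrected for the length of the gene and the depth of the library) of the shared genes in the library's own species, rescaled to sum to 1000000 in each library. The recovered totals were 25286728 to 34783047 reads per library, and 84.2% to 90.0% of them fell on the shared genes. A margin is the log2 of IVA12 + 1 over the nearest T line + 1, where the nearest T line is the highest one for genes above and the lowest one for genes below. Intervals are 95% intervals for counting reads and cover counting error only. Over the 6795 genes at 5 TPM or more in all 4 libraries, the median log2 ratio of IVA12 was -0.35 to Jurkat, -0.31 to TALL104 and -0.00 to EL4, so values against the human lines sit about that far below 0 for a typical gene. Immunoglobulin and T-cell receptor segment genes were not covered by the values used here (0 of 702 annotated in mouse), nor were class II histocompatibility genes, whose symbols differ between the species.

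The B-lineage label was met by 7 of 10 markers, which were at 1 TPM or more in IVA12 and summed to 9803 TPM against 235 to 389 in the T lines. By the same level, 6 of the 10 were met in TALL104, 4 in Jurkat and 2 in EL4. The count thus separated IVA12 from TALL104 by 1 marker and the sum by far more. Most of the IVA12 sum came from JCHAIN (4580 TPM), POU2AF1 (2486) and MZB1 (1774). The 3 markers under 1 TPM in IVA12 included CD79A at 0.193 and PAX5 at 0.555 TPM. Each T line held all 11 T-lineage markers at 1 TPM or more, with sums of 5031 to 5777, while in IVA12 4 of 11 reached this level and the sum was 47.6, of which CD2 made up 35.5. Of the 6 myeloid markers found, 0 reached 1 TPM in IVA12. Of 6 stromal and epithelial markers, EPCAM (248 TPM) and CDH1 (2.49) did.

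By any margin, IVA12 was above all 3 T lines at 18.8% of the shared genes and below all 3 at 20.3%. At 2-fold, 4.87% of the shared genes were above and 4.53% below. The balance between the directions moved with the scaling. By any margin, 3456 genes were above and 2700 below under median-ratio scaling, 3462 and 2736 with reads not divided by length, and 3767 and 2420 with the FPKM as deposited. At 2-fold the counts were 894 and 618, 814 and 637, and 710 and 383 in the same order. The members above had a median margin of 1.88 with quartiles of 1.34 and 3.10, and 348, 202, 99 and 23 of them were past 4-, 8-, 16- and 64-fold. The members below had a median margin of -1.72 with quartiles of -2.94 and -1.27, and 287, 172, 97 and 27 were past the same limits. The counting interval of IVA12 overlapped that of a T line at 13 members above and 3 below, and was separate from all of them at the other 742 and 698. Members were chosen by a 2-fold gap, so separate intervals largely follow from that choice. The share of separate intervals over all shared genes was not counted. The shares of 4.87% above and 4.53% below are the background for every list described here.

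**Figure D1:**
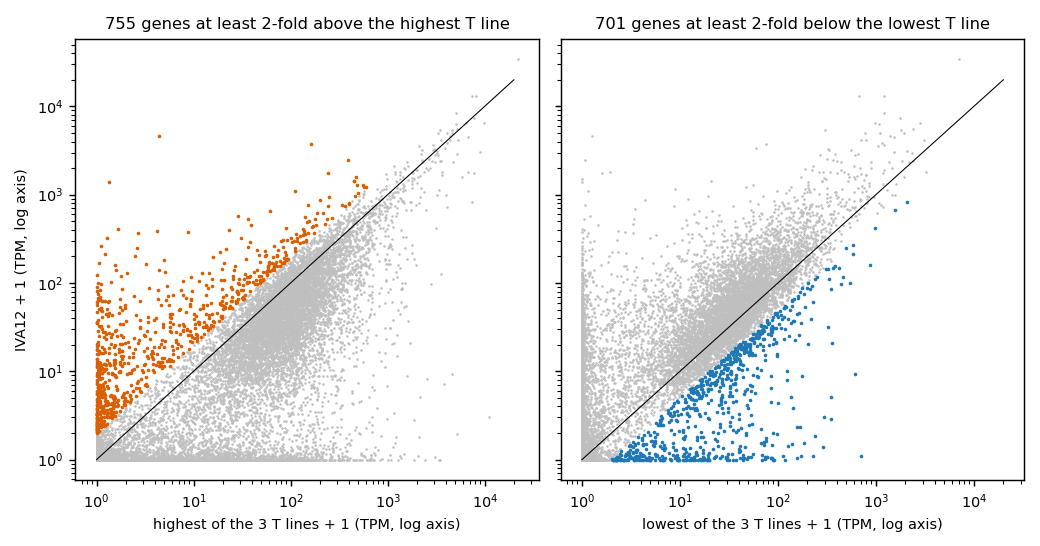
Value of IVA12 + 1 against the highest (left) and the lowest (right) of the 3 T lines + 1, in TPM on log axes, with 1 point per shared gene and the line of equal values. The 755 coloured genes on the left are at least 2-fold above the highest T line and many sit at the left edge, where every T line is near 0, and the 701 coloured genes on the right are at least 2-fold below the lowest.

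Many of the members above were genes that the T lines hardly expressed. Every T line was under 1 TPM at 352 of the 755, and 74 were listed at 0 in all 3. Only 211 were at 1 TPM or more in every T line, and 171 reached 100 TPM in IVA12. Together they took 8.11% of the summed TPM in IVA12, against 1.01% in Jurkat, 0.902% in TALL104 and 1.68% in EL4. With a pseudocount of 1, a gene can be 2-fold below only where every T line is at 1 TPM or more. IVA12 was under 1 TPM at 258 of the 701 members below and at 0 at 65. They took 1.04% of the summed TPM in IVA12, against 9.48% in Jurkat, 14.6% in TALL104 and 6.15% in EL4. The direction of both contrasts in summed TPM follows from how the members were chosen. The margin was larger than the range among the T lines themselves at 558 members above (median range 0.77 on the log2 scale) and at 396 below (median range 1.71). For the 352 members above with every T line under 1 TPM this outcome was fixed in advance. The pseudocount holds their range below 1, and a member's margin is at least 1. The share over all shared genes was not counted.

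The T lines differed in how many genes they removed. IVA12 was at least 2-fold above Jurkat at 2201 genes, above TALL104 at 2701 and above EL4 at 1936, and of these 34.3%, 28.0% and 39.0% were above all 3. It was at least 2-fold below Jurkat at 4261 genes and below TALL104 at 4152, but below EL4 at 1758. Of the genes below each, 16.5%, 16.9% and 39.9% were below all 3. EL4 was the nearest T line at 290 members above, or 42.6% of those without a tie, while it was the highest T line at 26.0% of all shared genes expressed in a T line. Among the members below EL4 was nearest at 400, or 57.1%, and it was the lowest T line at 48.3% of all genes expressed in all 3. Without EL4, 1570 genes would be above and 2651 below the human T lines.

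**Figure D2:**
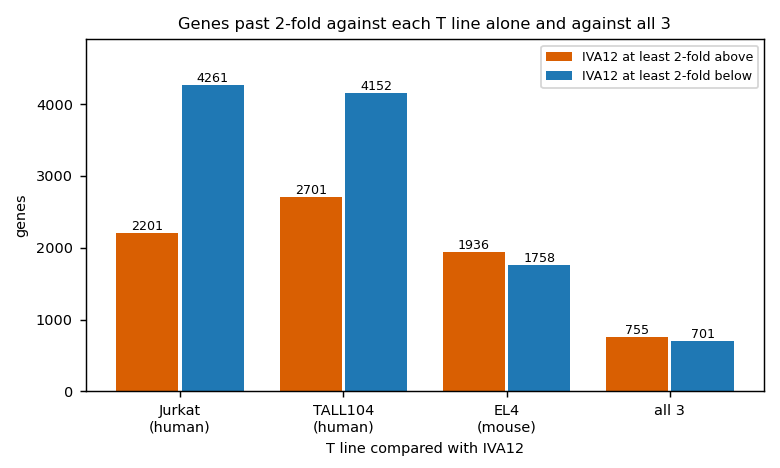
Number of shared genes at which IVA12 was at least 2-fold above or below each T line alone and all 3 together. The bars for genes below reach 4261 and 4152 against the human lines and 1758 against EL4, and 755 and 701 genes were above and below all 3.

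JCHAIN, the joining chain of polymeric immunoglobulin, had the largest margin of all shared genes (10.03). The gene (ENSMUSG00000067149, mm10 chr5:88519809-88527891, minus strand) was at 4580.4 TPM in IVA12, 0.534 in EL4, 0.262 in Jurkat and 3.37 in TALL104. No T library came within 1360.4-fold of IVA12 (interval 941 to 2047 against TALL104). SDC1, the surface proteoglycan CD138 that marks plasma cells (ENSMUSG00000020592, mm10 chr12:8771323-8793715, plus strand), was at 214 TPM in IVA12, 0.0294 in EL4, 0.163 in Jurkat and 0.225 in TALL104. All 3 T lines were under 1 TPM. The margin of SDC1 was 7.45, and IVA12 exceeded TALL104 952-fold (371 to 3493).

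SLPI and LTF had the largest margins after JCHAIN. SLPI, a leukocyte protease inhibitor, had 1384 TPM in IVA12 against 0 in Jurkat, 0.339 in TALL104 and 0 in EL4, where TALL104 had 1 read. Its margin was 10.01, close to that of JCHAIN. LTF, the iron-binding protein lactotransferrin, had 319.5 TPM in IVA12 against 0.0345 in Jurkat, 0.285 in TALL104 and 0.0325 in EL4, with a margin of 7.96. EPCAM, an adhesion molecule of epithelial cells, had 248 TPM in IVA12 against 0 in Jurkat, 1.6 in TALL104 and 0 in EL4. IVA12 was 154-fold above TALL104 (99.8 to 253), and the other epithelial and stromal genes of its list were low in all 4 libraries or higher in a T line, as described with that list. Outside the list, the epithelial genes ELF3, LSR, ST14 and TJP1, picked after their values were seen, were at 43, 69.7, 61.4 and 40.9 TPM in IVA12 and at most 0.253, 1.45, 0.232 and 0.303 in a T line. ALPL, the tissue-nonspecific alkaline phosphatase, had 169 TPM in IVA12 against 0 in Jurkat, 0 in TALL104 and 0.0556 in EL4, so the 3 T lines together gave 2 reads.

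The other genes with the 12 largest margins above came from several classes. CDKN2A, which encodes the cell-cycle inhibitor p16 and the p53 activator ARF, had 411 TPM in IVA12 against 0 in Jurkat, 0.0918 in TALL104 and 0.669 in EL4. LY86, also called MD-1, which pairs with the Toll-like receptor homologue CD180, had 259.5 TPM in IVA12 against 0 in Jurkat, 0 in TALL104 and 0.112 in EL4. MPEG1, a pore-forming protein of phagocytes, had 99.8 TPM in IVA12 against 0 in Jurkat, 0 in TALL104 and 0.0259 in EL4. These 3 genes stood above 90 TPM in IVA12 and under 1 in each T line. CD74, the invariant chain that guides class II molecules, had 157 TPM in IVA12 against 0 in Jurkat, 0.444 in TALL104 and 0.556 in EL4. OVOL3, a zinc-finger gene, had 370.1 TPM in IVA12 against 1.67 in Jurkat, 1.15 in TALL104 and 0.153 in EL4, and SYCE1, a protein of the meiotic synaptonemal complex, had 122 TPM in IVA12 and was listed at 0 in every T line. SYCE1 was then at least 1112-fold higher than in Jurkat, taking 3 reads as the floor. The bound is weaker against the other T lines. The upper interval limit of SYCE1 was 0.135 TPM in Jurkat, 0.186 in TALL104 and 0.566 in EL4. Of these 12 genes, 0 overlapped another coding gene in mouse, and ALPL, OVOL3, SYCE1 and MPEG1 did so in human, where reads of the overlapping genes may be shared.

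**Figure D3:**
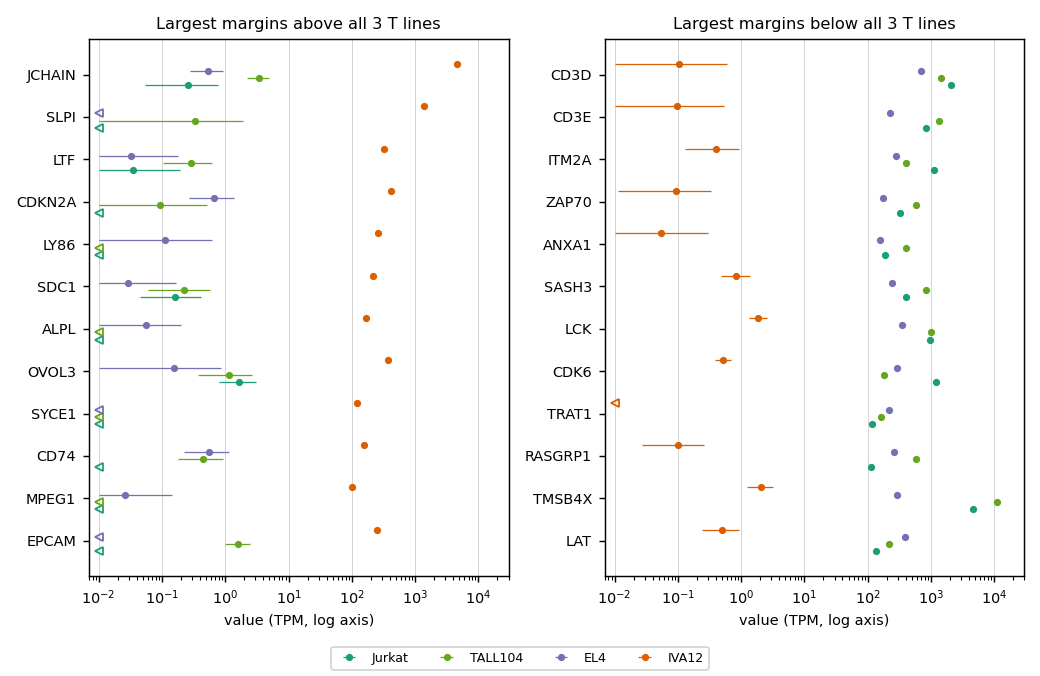
Values in TPM on a log axis for the 12 genes with the largest margin above (left) and below (right) all 3 T lines, with 1 point per library and bars for the 95% counting interval, open triangles at the left edge standing for genes listed at 0. On the left IVA12 lies between 99.8 and 4580.4 with every T line under 4, and on the right IVA12 lies under 3 with every T line above 100.

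The B-cell receptor and its partners were split. Of 14 genes in a list of receptor and coreceptor proteins, 5 were at least 2-fold above all 3 T lines, 0 were below and 9 were neither, with a median log2 difference to the mean T line of 1.40 against -0.08 over all shared genes. CD79B, a signalling chain of the receptor, had 579.8 TPM in IVA12 against 0.212 in Jurkat, 27.5 in TALL104 and 1.17 in EL4. MS4A1, the surface protein CD20, had 165 TPM in IVA12 against 0.12 in Jurkat, 2.2 in TALL104 and 0 in EL4. Both were well above TALL104, the nearest T line, by 21.1-fold (18.7 to 23.9) and 75.1-fold (57.4 to 100.4). FCRLA, an Fc-receptor-like protein retained inside B cells, was at 61.7 TPM in IVA12, FCRL1 at 10.9 and the inhibitory Fc receptor FCGR2B at 29.7.

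CD79A, the partner of CD79B, did not follow it. It was at 0.193 TPM in IVA12, 0.538 in EL4, 84.4 in Jurkat and 141 in TALL104, so both human T lines were higher and the 2 mouse lines were close to 0. CR2, a complement receptor of B cells, was at 0.263 TPM in IVA12 and 12.7 in Jurkat. CD81, a tetraspanin, was at 156 in IVA12 and 148 in TALL104, a margin of 0.07. CD180, the partner of LY86, was at 13.9 TPM in IVA12 and higher in EL4, at 47.6.

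Of 14 B-cell receptor signalling genes, 1 was above and 2 were below all 3 T lines at 2-fold, and the median and the mean difference to the T lines had opposite signs (0.90 and -0.05). BLNK, the adaptor that links the receptor to phospholipase C, had 141 TPM in IVA12 against 0.594 in Jurkat, 0.0545 in TALL104 and 0.112 in EL4, a margin of 6.48. PRKCB, the protein kinase C that acts downstream of the receptor, had 0.0551 TPM in IVA12 against 89 in Jurkat, 83.7 in TALL104 and 86.9 in EL4. The 3 T lines were close to each other for PRKCB and IVA12 had 3 reads. VAV3, a guanine nucleotide exchange factor, was likewise lowest in IVA12 (0.0702 against 10.5 to 125 TPM). The kinases LYN, SYK and BTK stood at 29.6, 46.2 and 2.28 TPM in IVA12 and were neither. TALL104 was higher than IVA12 for LYN (137) and SYK (149), and Jurkat was higher for SYK (107).

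Among 16 transcription factors of the B lineage, 4 were above and 1 below all 3 T lines at 2-fold, with a median difference of 0.73. POU2AF1, the coactivator of octamer-binding factors, had 2486 TPM in IVA12 against 10.7 in Jurkat, 0.0817 in TALL104 and 386 in EL4. EL4 also expressed it, and IVA12 was 6.44-fold above EL4 (6.29 to 6.59). IRF4, needed for plasma-cell formation, had 536 TPM in IVA12 against 0.0497 in Jurkat, 0.0685 in TALL104 and 35.1 in EL4, which was 15.3-fold above EL4 (14.5 to 16.1). MEF2C and SPI1 (PU.1), factors shared by B and myeloid cells, were at 60.2 and 64.1 TPM in IVA12 and under 0.1 in every T line. IRF8, a factor of germinal-centre B cells, was the gene below, at 0.0199 in IVA12 and 1.49 to 4.83 in the T lines.

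Other B-lineage factors did not separate IVA12. PAX5, which maintains B-cell identity, was at 0.555 TPM in IVA12 and 0.279 in EL4. EBF1, BCL11A and BACH2, which act in early or mature B cells, were at 2.91, 0.395 and 0.113 in IVA12, each with at least 1 human T line higher. PRDM1, the repressor that drives plasma-cell differentiation, had 67 TPM in IVA12 against 2.0 in Jurkat, 41.9 in TALL104 and 1.08 in EL4. XBP1, the factor that expands the secretory apparatus, had 471 TPM in IVA12 against 159.8 in Jurkat, 439 in TALL104 and 57.4 in EL4. Both were highest in IVA12, but TALL104 was close, with margins of 0.66 and 0.10. Against EL4 alone the log2 differences were 5.03 for PRDM1 and 3.01 for XBP1.

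Plasma-cell genes gave the clearest group above the T lines. Of 16 in the list, 10 were at least 2-fold above all 3, 0 were below, and 14 were above by any margin, with a median difference of 3.30. Their summed value was 8264 TPM in IVA12 and 273 to 1383 in the T lines. MZB1, an ER chaperone of antibody-secreting cells, had 1774 TPM in IVA12 against 243 in Jurkat, 50.8 in TALL104 and 0.619 in EL4. ELL2, an elongation factor that acts on immunoglobulin messages, had 202 TPM in IVA12 against 1.52 in Jurkat, 0.335 in TALL104 and 0.246 in EL4. The receptors for the survival factors BAFF and APRIL, TNFRSF17, TNFRSF13B and TNFRSF13C, were at 11.2, 174 and 10.9 TPM in IVA12, each above every T line. SLAMF7 and PIM2 were higher in TALL104 (844 and 165) than in IVA12 (87.6 and 98.8). Without TALL104, 14 of the 16 were past 2-fold.

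The secretory machinery differed by small amounts. Of 23 ER folding and unfolded-protein-response genes found, 15 were above all 3 T lines by any margin and 1 was below, but 0 passed 2-fold in either direction, while 3 did so above under median-ratio scaling and 5 with the FPKM as deposited. The list summed to 12713 TPM in IVA12 and 7481 to 8904 in the T lines, with a median difference of 0.88. EDEM2, which marks misfolded glycoproteins for degradation, had 229.6 TPM in IVA12 against 42.8 in Jurkat, 115 in TALL104 and 27.5 in EL4, and its margin of 0.99 was the largest of the list. SDF2L1, a partner of the chaperone BiP, had a margin of 0.89, and SYVN1, the ubiquitin ligase of ER-associated degradation, 0.52. HSPA5, which is BiP itself, was at 1260.0 TPM in IVA12 and 718 to 956 in the T lines. Without TALL104, 6 of the list passed 2-fold above.

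Of 23 ER translocation and vesicle transport genes, 1 was above at 2-fold, 0 were below, and the median difference was 0.25. That gene was SSR2, a subunit of the translocon-associated complex, with 740.4 TPM in IVA12 against 101 in Jurkat, 213 in TALL104 and 243 in EL4. It exceeded EL4 by 3.05-fold (2.94 to 3.16), but as scaled reads without division by length its margin was 0.56. SSR4, of the same complex, and SAR1B, a GTPase of vesicles leaving the ER, had margins of 0.87 and 0.73.

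Antigen-processing genes were split. In a list of 11 genes found, 3 were above and 0 below all 3 T lines at 2-fold, and the median difference of -1.19 and the mean of 1.05 had opposite signs, the other 8 lying mostly below 0. CTSS, the cathepsin that trims the invariant chain, had 772 TPM in IVA12 against 0.486 in Jurkat, 149 in TALL104 and 0.0825 in EL4. LGMN, an endosomal asparaginyl protease, had 448 TPM in IVA12 against 38 in Jurkat, 0.466 in TALL104 and 1.98 in EL4. The third was CD74. CTSH, another cathepsin of the list, had 0.593 TPM in IVA12 against 3.73 in Jurkat, 11 in TALL104 and 0 in EL4. CIITA, the master regulator of class II genes, was at 0.241 TPM in IVA12 and at most 0.213 in a T line. B2M, the class I light chain, was at 1772 in IVA12, between Jurkat (1191) and EL4 (7105).

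CD3D and CD3E, chains of the CD3 complex, had the largest margins below the T lines. CD3D (ENSMUSG00000032094, mm10 chr9:44981786-44987339, plus strand) was at 0.106 TPM in IVA12, 709.7 in EL4, 2042 in Jurkat and 1431 in TALL104, a margin of -9.33. IVA12 had 1 read. CD3E (ENSMUSG00000032093, mm10 chr9:44998740-45009627, minus strand) was at 0.0978 TPM in IVA12, 229 in EL4, 849 in Jurkat and 1333 in TALL104, and CD3G at 4.07 TPM in IVA12, 634 in EL4, 359 in Jurkat and 351 in TALL104. The 3 genes are neighbours on mouse chromosome 9, and all 3 T lines were above 200 TPM for each of them. LCK, the kinase that phosphorylates the CD3 chains, was at 1.87 TPM in IVA12, 348 in EL4, 970.1 in Jurkat and 989 in TALL104, so EL4 was 186-fold above IVA12 (136 to 262). ZAP70, the kinase recruited to those chains, was at 0.0939 TPM in IVA12, 172 in EL4, 329 in Jurkat and 571 in TALL104. LAT, the adaptor it phosphorylates, was at 0.508 TPM in IVA12, 383 in EL4, 138 in Jurkat and 217 in TALL104.

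Of 20 genes of the CD3 complex and T-cell receptor signalling, 17 were at least 2-fold below all 3 T lines and 0 were above, with a median difference of -6.30. TRAT1, an adaptor that stabilises the receptor, was at 0 TPM in IVA12, 221 in EL4, 118 in Jurkat and 159.9 in TALL104. With no read in IVA12 it was at least 192-fold higher in Jurkat, taking 3 reads as the floor. The 3 that were not below were FYN, PRKCQ and SH2D1A. FYN, a kinase also used by B cells, was at 77.3 TPM in IVA12 and 59.3 to 136 in the T lines. PRKCQ and SH2D1A were high in both human lines and at 0 in EL4, so a value below EL4 was not possible.

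The rest of the 12 largest margins below were 6 genes of other roles. RASGRP1, an exchange factor that activates Ras in T cells, was at 0.10 TPM in IVA12, 263 in EL4, 113 in Jurkat and 575 in TALL104. SASH3, an adaptor of lymphocytes, was at 0.84 TPM in IVA12, 241 in EL4, 408 in Jurkat and 845 in TALL104. ITM2A, a membrane protein of thymocytes, was at 0.403 TPM in IVA12, 285 in EL4, 1136 in Jurkat and 399.7 in TALL104. All 3 had under 1 TPM in IVA12. ANXA1, a phospholipid-binding protein, was at 0.0539 TPM in IVA12, 154 in EL4, 190.3 in Jurkat and 404 in TALL104. CDK6, a kinase of the early cell cycle, was at 0.522 TPM in IVA12, 286 in EL4, 1198 in Jurkat and 182 in TALL104. TMSB4X, which binds actin monomers, was at 2.05 TPM in IVA12, 294 in EL4, 4579 in Jurkat and 11207 in TALL104, so the T lines themselves spanned a wide range. TMSB4X has near-identical copies in both genomes, and how reads with several alignments were counted is not given in the sources used here, so its value is uncertain.

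T-cell surface proteins were less uniform. Of 19 genes, 8 were at least 2-fold below all 3 T lines, 13 were below by any margin and 0 were above at either limit, with a median difference of -3.81. CD5, which tunes receptor signalling, was at 0.475 TPM in IVA12, 271 in EL4, 152 in Jurkat and 71.4 in TALL104. CD96 was at 0.0643 TPM in IVA12, 128 in EL4, 72.9 in Jurkat and 3100.4 in TALL104, with TALL104 far above the other T lines. Several defining markers could not pass 2-fold, because 1 T line was itself near 0. THY1 was at 0.81 TPM in IVA12, 2110.4 in EL4, 33.3 in Jurkat and 0.102 in TALL104, CD4 at 0 TPM in IVA12, 0.751 in EL4, 5.03 in Jurkat and 0.176 in TALL104 and CD8A at 0 TPM in IVA12, 0 in EL4, 3.06 in Jurkat and 162 in TALL104. CD2, an adhesion receptor of T and natural killer cells, was the T-lineage marker with the highest value in IVA12, at 35.5 TPM (interval 32.3 to 39) against 64.2 in EL4.

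Of 20 T-lineage transcription factors, 11 were at least 2-fold below and 0 above all 3 T lines, with a median difference of -3.14. GATA3 was at 0.0706 TPM in IVA12, 92.7 in EL4, 76.8 in Jurkat and 82.7 in TALL104, the T lines lying close together. BCL11B, which holds T-cell identity, was at 0.0693 TPM in IVA12, 48.1 in EL4, 103 in Jurkat and 70.1 in TALL104. TCF7, the Wnt effector TCF-1, was at 4.07 TPM in IVA12, 2150.1 in EL4, 197 in Jurkat and 134 in TALL104, with EL4 far the highest. TOX, IKZF2 and LEF1 were also below, with margins of -6.32, -6.38 and -2.76, and LEF1 was listed at 0 in IVA12. Of 13 cytotoxic and natural killer genes found, 3 were below and 0 above. GZMA, a granzyme, was at 0.96 TPM in IVA12, 97.5 in EL4, 103 in Jurkat and 5162 in TALL104, and CST7, an inhibitor of granzyme-processing cathepsins, was at 0.142 TPM in IVA12, 173 in EL4, 55.2 in Jurkat and 1468 in TALL104. The remaining one was GZMB. NKG7, a granule protein, was at 3463 TPM in TALL104 and 0.245 in EL4, so its margin was -0.32.

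Growth-related genes and markers of other cells did not separate IVA12 as lists. Of 20 proliferation genes, 0 were past 2-fold in either direction, 3 were above and 1 below all 3 T lines by any margin, and the median difference was 0.66, with TALL104 the lowest library for 18 of the 20. MKI67 was at 573 TPM in IVA12, 391 in EL4, 309 in Jurkat and 63.6 in TALL104, and PLK1, a mitotic kinase, at 361 TPM in IVA12, 305 in EL4, 162 in Jurkat and 10.9 in TALL104. TYMS, which makes thymidylate, was at 60.5 TPM in IVA12, 48.1 in EL4, 1360.5 in Jurkat and 79.8 in TALL104, far highest in Jurkat. Of 15 myeloid markers, CD68, a lysosomal protein, was above (79.8 TPM against at most 8.74) and FCER1G below. Of 15 stromal and epithelial markers, EPCAM was above and ACTA2 below, and the keratins KRT8, KRT18 and KRT19 were at 0, 0.10 and 0 TPM in IVA12. Both lists had medians of about -0.2 (-0.22 and -0.21).

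**Figure D4:**
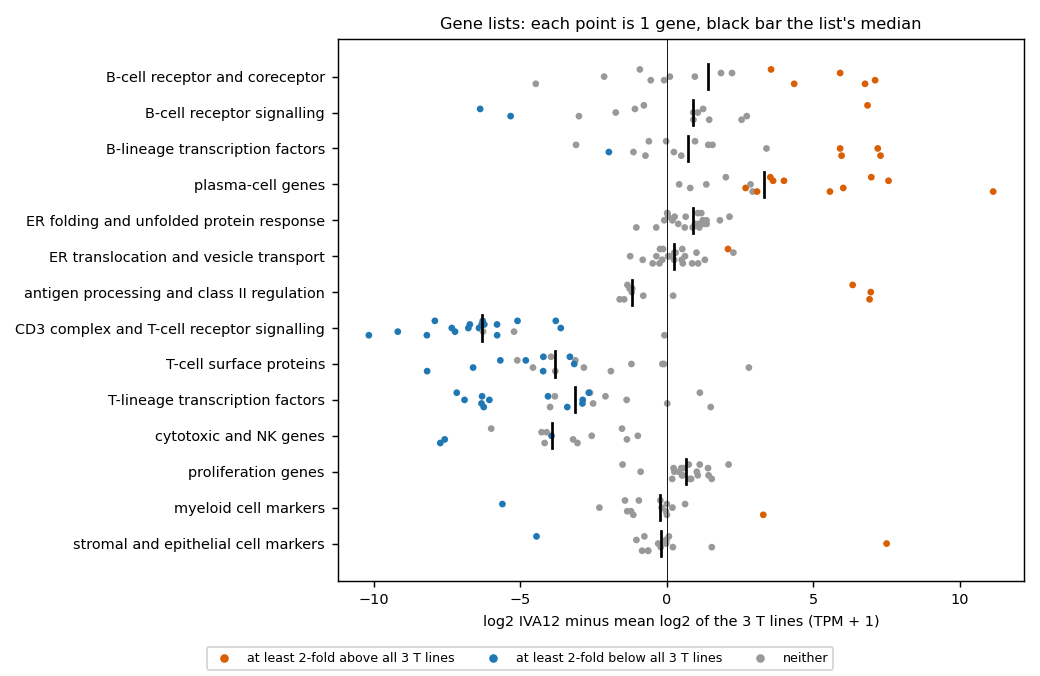
Log2 of IVA12 + 1 minus the mean log2 of the 3 T lines + 1 for each gene of 14 lists, with 1 point per gene, a black bar at the list's median and colours for genes past 2-fold against all 3 T lines. The plasma-cell list has its median at 3.30 and the CD3 list at -6.30, while the ER folding list sits close to its median of 0.88 with 0 genes past 2-fold, a count that is 3 under median-ratio scaling.

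Upstream sequences were searched for motifs known from B and plasma cells. RefSeq windows of human genes (GRCh38.p14, 250 bases before to 50 after the start) were matched by symbol for 578 of the 755 members above, 581 of the 701 below and 12400 of all shared genes, and both strands were searched. The corresponding mouse windows were not analysed here, so for IVA12 these are the sequences of the human counterparts. The octamer ATGCAAAT, which octamer factors bind together with POU2AF1, was present in 2.77% of windows of the members above (16 of 578), 1.2% of those below (7 of 581), 1.40% of all shared genes and 1.80% of all 27305 windows. The ER stress element CCAATNNNNNNNNNCCACG was present in 0.346% above (2 windows), 0.172% below (1 window), 0.0968% of the shared genes and 0.0806% of all windows. It was present in 4 of 22 windows of the ER folding list. The unfolded protein response element TGACGTGG was present in 3 windows above and 1 below, or 0.519% and 0.172%, against 0.944% of the shared genes and 0.795% of all windows. The CCACG part of the ER stress element occurred in 44.3% of windows above, 47.7% below, 45.9% of the shared genes and 37.9% of all. With so few windows these shares are counts of letters, not sites in use.

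The 250 bases before the start are shown for OVOL3 and BHLHA15, which hold the octamer, and for CRELD2, which holds the ER stress element, all read on the other strand, with the motif in capitals. OVOL3 has one of the 12 largest margins above, CRELD2, an ER protein of the plasma-cell list, was at 559 TPM in IVA12 against 17.4 in Jurkat, 111 in TALL104 and 141 in EL4, and BHLHA15, the secretory-cell factor MIST1, was picked after its values were seen (68.6 TPM in IVA12 against 0 in Jurkat, 0 in TALL104 and 0.0962 in EL4). JCHAIN and CD3D, the genes with the largest margins above and below, held none of these motifs apart from any CCACG and are shown for comparison. The windows are OVOL3 at chr19:36110893-36111142, + strand, BHLHA15 at chr7:98211189-98211438, + strand, CRELD2 at chr22:49918384-49918633, + strand, JCHAIN at chr4:70666509-70666758, - strand, and CD3D at chr11:118342706-118342955, - strand.
OVOL3: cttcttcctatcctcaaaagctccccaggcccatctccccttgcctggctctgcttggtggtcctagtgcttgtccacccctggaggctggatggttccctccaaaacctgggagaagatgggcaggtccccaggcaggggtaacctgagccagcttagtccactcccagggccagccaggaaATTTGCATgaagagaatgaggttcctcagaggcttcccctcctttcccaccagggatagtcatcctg
BHLHA15: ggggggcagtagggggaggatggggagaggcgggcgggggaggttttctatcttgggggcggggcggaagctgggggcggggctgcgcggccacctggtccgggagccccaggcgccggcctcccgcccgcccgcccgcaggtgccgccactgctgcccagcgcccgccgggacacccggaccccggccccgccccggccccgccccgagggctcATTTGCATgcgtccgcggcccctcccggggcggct
CRELD2: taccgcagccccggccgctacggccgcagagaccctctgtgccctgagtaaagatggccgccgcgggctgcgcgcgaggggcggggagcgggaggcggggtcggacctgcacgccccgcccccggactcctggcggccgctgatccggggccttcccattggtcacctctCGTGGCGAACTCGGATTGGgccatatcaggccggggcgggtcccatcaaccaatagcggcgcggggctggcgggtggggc
JCHAIN: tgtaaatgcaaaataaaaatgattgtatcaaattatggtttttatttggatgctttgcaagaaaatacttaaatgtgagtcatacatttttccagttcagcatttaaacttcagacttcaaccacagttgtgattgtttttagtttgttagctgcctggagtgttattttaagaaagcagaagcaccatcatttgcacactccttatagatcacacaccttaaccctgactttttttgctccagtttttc
CD3D: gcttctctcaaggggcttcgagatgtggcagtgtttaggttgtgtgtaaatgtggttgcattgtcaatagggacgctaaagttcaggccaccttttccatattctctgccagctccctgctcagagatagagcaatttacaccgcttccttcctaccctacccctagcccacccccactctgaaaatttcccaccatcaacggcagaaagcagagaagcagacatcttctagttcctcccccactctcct
The octamer ends 59 bases before the start in OVOL3 and 27 in BHLHA15, and the ER stress element of CRELD2 ends 61 bases before it.

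By mouse chromosome, the members were not spread evenly. Chromosome 9 held the largest share above, 62 of 885 shared genes or 7.01%, and the smallest share below, 3.05%, and it carries LTF and POU2AF1 as well as the 3 CD3 genes. Chromosome 11 was similar, with 5.66% above and 3.11% below. Chromosome X and chromosome 12 had the largest shares below, 7.59% and 7.50%, with 3.07% and 4.23% above. Against EL4 alone, the line of the same species, the median log2 ratio of genes at 5 TPM or more in all 4 libraries was 0.33 on chromosome 9, 0.31 on chromosome 11, -0.26 on chromosome X and -0.38 on chromosome 12. Shares and medians did not always go together. Chromosomes 15, 17 and 19 held 6.25%, 5.80% and 5.83% above, with medians of 0.035, 0.041 and 0.005. Chromosome 18 had a median of -0.34 with 5.24% below. Neighbouring genes are not independent, and no test was made.

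**Figure D5:**
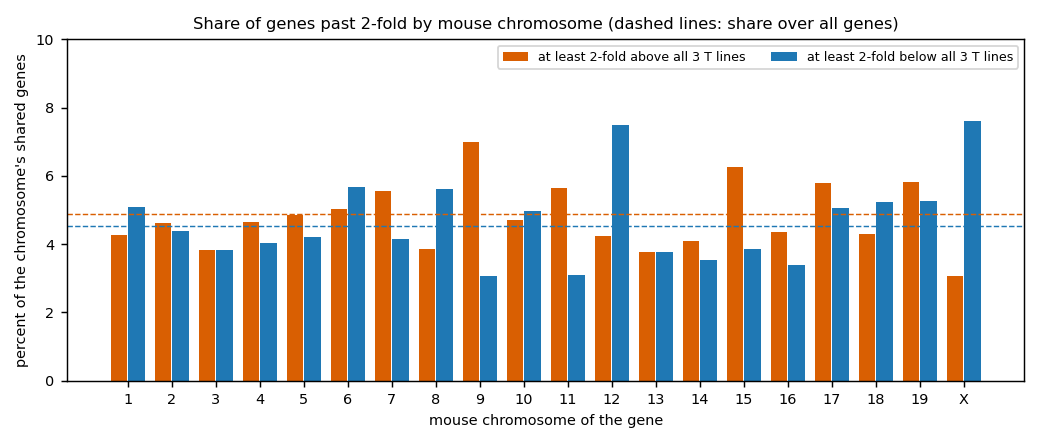
Percent of the shared genes of each mouse chromosome that were at least 2-fold above or below all 3 T lines, with dashed lines at the shares over all genes (4.87% and 4.53%). The bar above is highest on chromosome 9 (7.01%) and the bars below are highest on X (7.59%) and 12 (7.50%).

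Members with a small margin include genes expressed in every line. The 10 genes above with every T line at 100 TPM or more were PSIP1, MORF4L2, MRFAP1, SSR2, PSME2, EIF3G, SHMT2, RNF4, SSRP1 and NHP2, with margins from 1.01 to 1.93. PSIP1, a chromatin-associated coactivator, had 939.6 TPM in IVA12 against 209.8 in Jurkat, 147 in TALL104 and 246 in EL4. PSME2, a subunit of the proteasome activator, had 627 TPM in IVA12 against 214 in Jurkat, 211 in TALL104 and 199 in EL4, the T lines lying close together. Just inside the limit were PTH1R and GSDMA above, with 1.54 and 1.13 TPM in IVA12, and GSR and CDKN2AIP below, with 86.9 and 12.1. Just outside were FOXP2 and SESN2 above, with 1.07 and 88.7 TPM in IVA12, and CCDC157 and GNG10 below, with 0.93 and 1.18. All 4 genes just inside the limit fell short of it with a pseudocount of 5, with the FPKM as deposited and with reads not divided by length.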

How the data were processed

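Messenger RNA of 4 cell lines was sequenced with a stranded kit, 1 library per line. Read pairs were aligned by the authors with STAR 2.5.1b to a joint hg19 and mm10 reference distributed with Cell Ranger 1.2.0, and genes were counted with featureCounts 1.6.3, as the methods and processing notes give it. The deposited values are FPKM for the genes of both species. The strand setting of the counting and the treatment of reads with several alignments are not given in the sources used here, and both affect overlapping genes and genes with near-identical copies.

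Symbols and positions came from GENCODE human release 44 mapped to hg19 and mouse release M21 on mm10, matched by gene identifier. Of 32738 human and 27998 mouse genes, 31182 and 27722 had a symbol, 15552 upper-case symbols were unique and shared, 15500 of these were protein-coding in both, and 12 mitochondrial genes were left out. A shared symbol was taken as the same gene, and orthology was not checked. Human and mouse gene lengths differ, which shifts FPKM between species (median log2 mouse over human length -0.18 over all shared genes, -0.26 over members above and -0.13 below).

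Each library was rescaled to a sum of 1000000 over the 15488 shared genes (TPM), and log2 ratios used a pseudocount of 1. Totals and reads were recovered from the FPKM steps and exon lengths at a relative tolerance of 1e-09. Lengths that were not the annotated ones were solved for (87.5% of human and 28.5% of mouse shared genes above 0), so their reads may share a missed factor, which would make intervals too wide. Exact Poisson intervals at 95% cover counting error only. With 1 library per line no test was made. The calculation was also run on simulated reads with 200 changed genes, in which the T lines shared the same baseline and differed by counting noise only. It checks the arithmetic and cannot show how calls behave across differing T lines of both species.

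Named genes were the 12 largest margins in each direction, the 3 genes of each of 14 lists with the largest absolute difference to the mean T line, 18 lineage markers, and the 2 genes on either side of the limit in each direction. Other genes are named where a list or count needed them, with values seen. The members and lists were chosen with earlier results of these data known. Alternatives changed the pseudocount (0.1, 5), filters, scaling, gene length, ribosomal protein genes, the fold limit and the T lines. Python 3.11.15, NumPy 2.4.6, pandas 2.3.3, SciPy 1.17.1 and matplotlib 3.10.9 were used. Some members of the lists are not reported here.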

Additional observations from a re-analysis of the deposited data

Results flagged for a closer look

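Reads on genes of the other species lay outside the comparison, as did the reads on genes of the library's own species that are not shared. Those on the other species made up 0.212% of the IVA12 library, 0.0497% of EL4, 0.0405% of Jurkat and 0.0376% of TALL104 (Wilson 95% interval 0.211 to 0.214 for IVA12). They numbered from 10470 reads in TALL104 to 53322 in IVA12, and where they came from was not tested. IVA12 had the largest share, and its part in the results was not tested.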

How the results depend on the processing

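No paired analysis was possible because each line has 1 library and the labels give no shared replicate numbers. No named gene past 2-fold changed sign under any alternative run. Of 56 named genes past 2-fold, all 56 stayed past it with a pseudocount of 0.1, with either filter, without ribosomal protein genes and without any single T line. With a pseudocount of 5 it was 49, with median-ratio scaling 54, with FPKM as deposited 49 and with reads not divided by length 50. Leaving out 1 T line gave 993 to 1570 genes at least 2-fold above, 926 to 2651 below, 3675 to 3963 above by any margin and 3750 to 6080 below by any margin. In each case the highest count was the one without EL4. A limit of 1.5-fold gave 1206 above and 1207 below, and 4-fold gave 348 and 287. With FPKM as deposited, 710 genes were above and 383 below, holding 77.1% and 54.6% of the genes reported. The FPKM are 3.55 to 5.73 times smaller than the rescaled values, against the same pseudocount. The share above among genes past 2-fold was then 65.0% in place of 51.9%, and by any margin 60.9% in place of 48.1%. Among genes past 2-fold the share above was 37.2% without EL4. The other counts of genes above or below, taken over all shared genes, stayed within 1.5 times the reported ones. Counts within a single gene list could move by more, as given for the ER folding list. Depth limits genes of few reads, where 1 read in IVA12 can decide a fold.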

Other observations

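Genes of the p53 pathway were looked at after MDM2 was seen to have the second-highest IVA12 value among genes above all 3 T lines. MDM2, the ubiquitin ligase that degrades p53, had 3744 TPM in IVA12 against 151 in Jurkat, 163 in TALL104 and 74.6 in EL4. CDKN2A, whose product ARF blocks MDM2, is described above at 411 TPM. BTG2 had 1438 TPM in IVA12 against 19.6 in Jurkat, 446 in TALL104 and 53.5 in EL4, RPS27L 1232 TPM in IVA12 against 46.4 in Jurkat, 141 in TALL104 and 567 in EL4, and PMAIP1 221 TPM in IVA12 against 86.8 in Jurkat, 29 in TALL104 and 1.36 in EL4. Other p53 targets did not separate IVA12, with CDKN1A at 55.4 TPM between Jurkat (1.82) and TALL104 (79.2), and FAS was below all 3 T lines at 2.34. Of 20 genes listed, 18 were found, 5 were at least 2-fold above and 1 below.

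Actin-regulating genes were listed after TMSB4X appeared among the largest margins below. Of 25, 12 were at least 2-fold below all 3 T lines, 21 were below by any margin and 0 were above, and they summed to 9706 TPM in IVA12 against 16518 in EL4, 33691 in Jurkat and 40886 in TALL104. LCP1, an actin-bundling protein of leukocytes, had 97.5 TPM in IVA12 against 2327 in Jurkat, 2770.4 in TALL104 and 437 in EL4. CORO1A, an actin-binding protein of lymphocytes, had 215 TPM in IVA12 against 651 in Jurkat, 1319 in TALL104 and 586 in EL4, and MYO1G, a lymphocyte myosin, had 1.23 TPM in IVA12 against 219 in Jurkat, 212 in TALL104 and 67 in EL4. TMSB10 was at 8.26 TPM in IVA12 and 617 to 4649 in the T lines. CFL1, the main cofilin of these cells, was at 2552 in IVA12 and 2673 in EL4 but 319 to 417 in the human lines. In reads, not divided by length, it had 20856 in IVA12 and 27375 in EL4 against 9249 in TALL104 and 16668 in Jurkat, a smaller gap. ACTB, TMSB4X, TMSB10 and CFL1 have near-identical copies and their values are uncertain. PTPRC, the leukocyte common antigen CD45, was at 7.76 TPM in IVA12 and 177 to 1567 in the T lines. GLI1, an effector of Hedgehog signalling, had 388 TPM in IVA12 against 3.18 in Jurkat, 2.59 in TALL104 and 1.35 in EL4. All genes and lists of these 2 paragraphs were chosen after their values were seen, and both lists hold only a part of what could be listed. Their counts and sums include MDM2 and TMSB4X, which prompted the lists, and are descriptions only.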
